A study of Mus musculus with 30 samples.

Results

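The genes described here are 9 transcription factors that are used to follow the exit of embryonic stem (ES) cells toward endoderm and mesoderm: Gata2, Gata3, Gata4, Gata6, Sox17, Foxa2, Eomes, T and Mixl1. They were taken as a list of names, with no threshold on a measured value but with earlier results of these data known. They were found by matching gene identifiers to GENCODE symbols. All 9 were among the 55401 genes of the count tables. Nuclear RNA was sequenced from mouse ES cells in which the chromatin remodeler SRCAP could be degraded, and the question asked of these genes was whether their nuclear transcripts differed after SRCAP loss.

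GATA factors are zinc finger proteins that bind the GATA motif and that specify endoderm, heart, blood and trophoblast cells. Sox17 and Foxa2 are endoderm regulators, Eomes and T (Brachyury) are T-box factors of the primitive streak, and Mixl1 is a homeobox factor of the same structure. In ES cells in serum and LIF most of these genes are nearly silent. SRCAP is the ATPase of a complex that places the histone variant H2A.Z in nucleosomes, including those at the promoters of such lineage genes.

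The series held 30 libraries, 15 conditions with 2 replicates each, in 4 count tables that were compared only within themselves. CGR8 is the parental mouse ES cell line, sampled as control or after 4 h in 500 µM indole-3-acetic acid (IAA), the auxin that triggers degradation. SYAT cells are 1 homozygous CGR8 clone with YPet-AID, a fluorescent protein joined to the auxin-inducible degron, on both Srcap alleles and with OsTir1, the auxin receptor, expressed from a lentivirus. SYAT cells were sampled as control and after 2, 4, 6 and 8 h in 500 µM IAA. SYAT cells were kept in auxinole, which blocks OsTir1, as the control condition. EG1 and LG1 are SYAT cells sorted by DNA content and a mitotic mCherry reporter into early and late G1 phase, as control or after 1 h in IAA. The wtSRCAP and cdSRCAP lines are SYAT cells with a doxycycline-induced transgene, wild type SRCAP or SRCAP with a mutated catalytic site. Each of the latter was 1 clone, induced for 24 h, sorted for similar mCherry levels and kept as control or exposed to IAA for 4 h. Replicates were described as biological duplicates, but with 2 libraries a group the spread is poorly known.

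Exon counts summed to 45617992 to 60214521 per library in CGR8, 17540823 to 22873893 in the SYAT time course, 19740778 to 26672402 in sorted cells and 12236493 to 26369773 in the wtSRCAP and cdSRCAP lines. All 12 ES cell markers of the list used (such as Pou5f1, Sox2 and Nanog) had counts in every group, with a summed level of 2350 to 5957 CPM (counts scaled to the library's exon total). The 8 fibroblast markers summed to 6.15 to 53.3 CPM, with Postn at 0 in the control and IAA groups of the SYAT time course. Srcap itself, whose protein and not its RNA is the target of IAA, had 40.3 to 48.5 CPM in SYAT controls and 43.3 to 63.5 CPM after 8 h, so its transcript does not check the degradation.

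Sequences upstream of 3 members are shown because the counts of these genes had an unadjusted p under 0.05 over the SYAT time course and a RefSeq start was at hand. Each run is the 250 bases before that start on the gene's own strand in GRCm38.p6, and every CG dinucleotide, the site of DNA methylation, is in capitals. The Gata3 window is chr2:9878601-9878850 on the minus strand, and its RefSeq start lies 11434 bases inside the gene as GENCODE annotates it. The Eomes window is chr9:118477939-118478188 on the plus strand, and the GENCODE start lies 23 bases downstream of the RefSeq start. The Gata2 window is chr6:88193641-88193890 on the plus strand and ends at the base before the GENCODE start. A second RefSeq start of Gata2 lies 4773 bases inside the gene, and its window, with 24 CG dinucleotides and 74% G and C, is not shown.
Gata3: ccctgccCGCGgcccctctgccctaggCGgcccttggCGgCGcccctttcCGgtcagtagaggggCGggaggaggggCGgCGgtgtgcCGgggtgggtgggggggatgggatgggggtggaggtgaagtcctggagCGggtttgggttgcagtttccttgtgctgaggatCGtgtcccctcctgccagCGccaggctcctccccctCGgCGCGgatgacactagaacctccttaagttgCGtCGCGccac
Gata2: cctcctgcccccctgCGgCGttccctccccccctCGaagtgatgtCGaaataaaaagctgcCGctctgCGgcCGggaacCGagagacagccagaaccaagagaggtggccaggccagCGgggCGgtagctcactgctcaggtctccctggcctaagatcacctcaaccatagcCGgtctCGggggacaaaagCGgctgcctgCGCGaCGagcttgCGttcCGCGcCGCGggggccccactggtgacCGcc
Eomes: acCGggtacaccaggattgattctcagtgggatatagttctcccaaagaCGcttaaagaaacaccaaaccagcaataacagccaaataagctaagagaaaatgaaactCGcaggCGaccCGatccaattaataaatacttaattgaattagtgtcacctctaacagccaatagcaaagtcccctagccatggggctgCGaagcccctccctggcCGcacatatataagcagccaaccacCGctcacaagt
These windows held 19 CG dinucleotides in Gata3, 22 in Gata2 and 8 in Eomes, against a median of 6 over 32851 promoter windows of the same length. The G and C content was 70.0% in Gata3, 67.2% in Gata2 and 46.4% in Eomes, against a median of 52.4%. The GATA motifs AGATAA and TGATAA, searched on both strands, were not in any of the 3 windows, and 9.99% and 7.94% of all windows held them. The T-box motif AGGTGTGA was also not in these windows, and 1.12% of all windows held it.

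In control cells the members were expressed at low levels that spanned a wide range. Levels are given here as exon RPKM, that is reads scaled by library total and by the GENCODE vM21 exon length. In SYAT controls the level of Eomes was the highest, at 2.14 ± 0.387 RPKM (SD, n = 2), followed by Gata4 at 1.06 ± 0.182 RPKM. Gata2 stood at 0.615 ± 0.160 RPKM, T at 0.477 ± 0.0195 RPKM, Mixl1 at 0.445 ± 0.252 RPKM and Gata3 at 0.379 ± 0.00818 RPKM. Eomes, Gata4 and Gata2 differed from each other by more than their SD, but Gata2, T, Mixl1 and Gata3 lay so close that neighbours in this order did not differ beyond their spread. Sox17 followed at 0.181 ± 0.0618 RPKM, Foxa2 at 0.106 ± 0.0586 RPKM and Gata6 at 0.0728 ± 0.00800 RPKM, and neighbours among these last 3 also overlapped within their SD. The same 3 genes stood highest in parental CGR8 controls, where Eomes stood at 0.874 ± 0.258 RPKM, Gata2 at 0.800 ± 0.132 RPKM and Gata4 at 0.672 ± 0.141 RPKM. Gata6 was at 0.279 ± 0.0961 RPKM in CGR8, and since the tables were made separately the lines were not tested against each other.

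Over the SYAT time course, Gata3, a GATA factor of trophoblast and other lineages, was the member with the largest log2 fold change in exon counts. Its raw exon counts were 30 and 34 in the controls. The replicates at 2 h of IAA had 59 and 138, those at 4 h had 60 and 120, those at 6 h had 81 and 100 and those at 8 h had 102 and 136. All 8 IAA libraries lay above both controls, also after scaling for library size, and the replicates of 2 h and 4 h differed from each other more than those of 8 h. The share of all genes with such an order was not counted, for Gata3 or for the members below, and the 8 libraries share the same 2 controls.
Scaled for library size, the Gata3 level was 29.9 ± 1.65 normalized counts (SD, n = 2) in controls, 93.1 ± 38.6 at 2 h, 84.4 ± 26.0 at 4 h, 111 ± 20.8 at 6 h and 108 ± 8.61 at 8 h. On the log2 scale the fold change by edgeR's quasi-likelihood test was 1.65 ± 0.37 (SE) at 2 h, 1.50 ± 0.37 at 4 h, 1.89 ± 0.37 at 6 h and 1.85 ± 0.37 at 8 h. The difference was of similar size at the first and the last time. The Benjamini-Hochberg adjusted p over all genes was 0.80, 0.21, 0.068 and 0.080 at the 4 times, so that no single time passed 0.05.
Averaged over the 4 times, the log2 fold change of Gata3 was 1.72 ± 0.32 with an edgeR adjusted p of 0.040, which passed the call used here, an adjusted p under 0.05 with a change over 0.5 on the log2 scale. Gata3 was the only member called among the 8 that passed the filter on low counts, and 1.21% of the 19205 genes tested were called in this comparison. The call was lost when any of 8 of the 10 libraries was left out. The adjusted p was 0.46 and 0.47 without the first or second control, and was between 0.020 and 0.47 over the 10 libraries. Its size on the log2 scale stayed between 1.59 and 1.81.

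**Figure D1:**
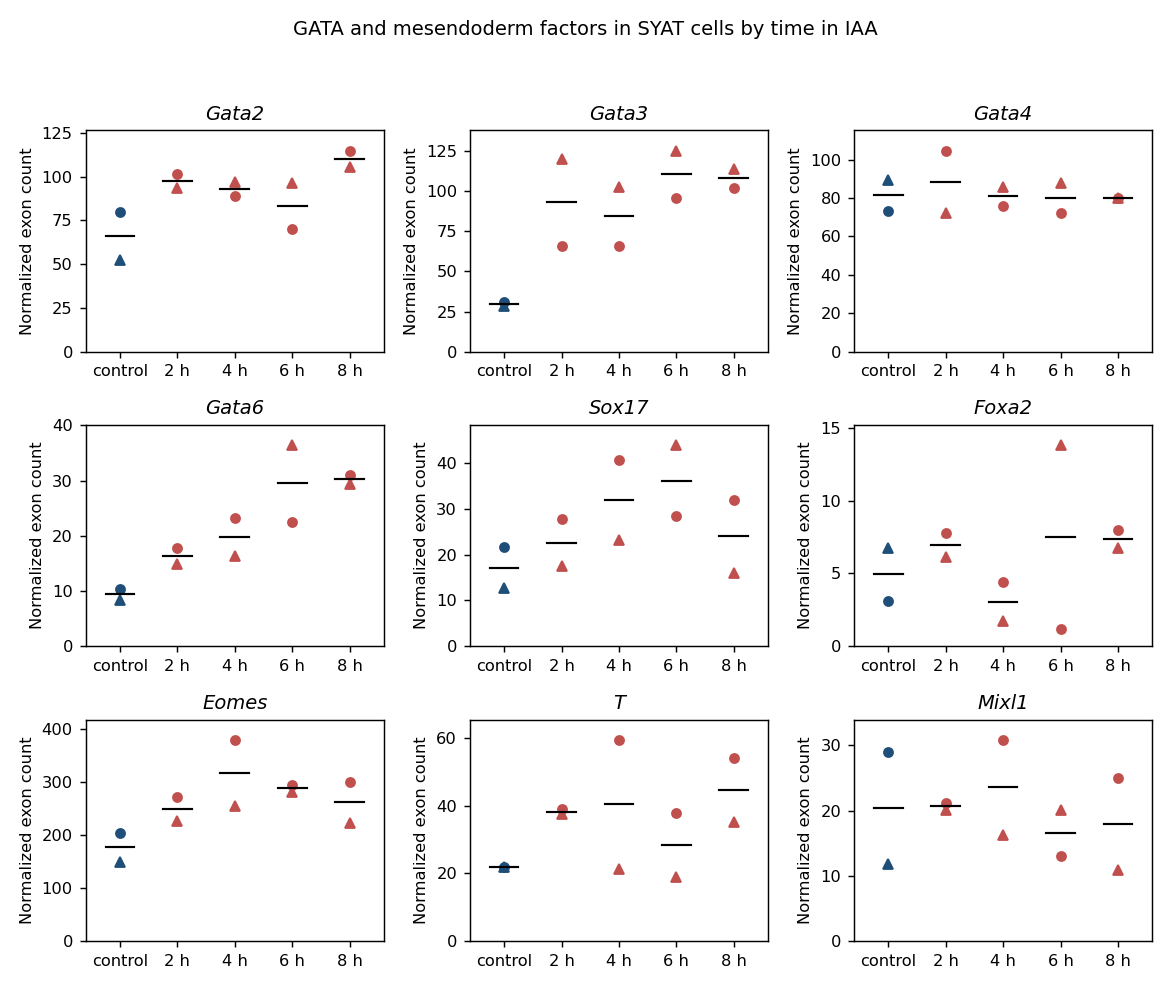
Normalized exon count (y axis, raw count scaled for library size) of the 9 members in SYAT controls (blue) and after 2 to 8 h in IAA (red). Circles are replicate 1, triangles replicate 2 and bars the mean of the 2. Gata3, Gata6 and Eomes have all 8 IAA libraries above both controls, and Gata4 and Mixl1 overlap with the controls. The share of all genes with such an order was not counted.

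Gata6, the GATA factor of primitive endoderm, had the lowest level per length in SYAT controls, with 10 raw exon counts in each library. With IAA the 2 h libraries had 16 and 17 counts, the 4 h libraries 21 and 19, the 6 h libraries 19 and 29 and the 8 h libraries 31 and 35. All 8 IAA libraries lay above both controls, and the 8 h libraries were above those of 2 h and 4 h.
Gata6 had a log2 fold change of 0.79 ± 0.46 at 2 h, 1.06 ± 0.45 at 4 h, 1.64 ± 0.44 at 6 h and 1.68 ± 0.44 at 8 h. The edgeR unadjusted p was 0.11, 0.041, 0.0041 and 0.0032 at these times, and the adjusted p was 0.14 at 8 h, so the difference did not pass the test. Averaged over the times it was 1.29 ± 0.38, with an edgeR adjusted p of 0.14.

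Eomes, a T-box factor of the primitive streak and trophoblast, had the most counts of the members. Raw exon counts were 196 and 177 in the controls, then 243 and 260 (2 h), 344 and 296 (4 h), 248 and 224 (6 h) and 300 and 264 (8 h) with IAA. After scaling, the controls had 149 to 203 normalized counts and the IAA libraries 222 to 379, with no overlap. Log2 fold changes were 0.50 ± 0.26, 0.84 ± 0.26, 0.71 ± 0.26 and 0.57 ± 0.26 at the 4 times and 0.66 ± 0.21 on average, where the edgeR adjusted p was 0.18.
Gata2, a factor of blood and trophoblast, had 77 and 62 raw exon counts in controls, with 91 and 107 (2 h), 81 and 113 (4 h), 59 and 77 (6 h) and 115 and 126 (8 h) in IAA. After scaling, 7 of the 8 IAA libraries were above both controls, but replicate 1 of 6 h was not. Its average log2 fold change was 0.54 ± 0.23, with an edgeR unadjusted p of 0.043 and an adjusted p of 0.33. It was 0.87 without the first control and 0.26 without the second, and the unadjusted p stayed under 0.05 in 3 of the 10 fits that left out 1 library.

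The streak factor T and the endoderm factor Sox17 had few counts. T had 21 and 26 raw exon counts in controls and 15 to 54 in the IAA libraries, and Sox17 had 21 and 15 in controls and 19 to 37 after IAA. Scaled, 6 of the 8 IAA libraries were above both controls for each gene. The average log2 fold change was 0.77 ± 0.43 for T and 0.71 ± 0.43 for Sox17, within the spread of the replicates, with edgeR unadjusted p of 0.11 and 0.13. Gata4, the GATA factor of heart and endoderm, had 71 and 106 counts in controls and 61 to 100 after IAA. The average log2 fold change of Gata4 was 0.01 ± 0.22. That of Mixl1, at 28 and 14 counts in controls and 11 to 28 after IAA, was -0.05 ± 0.46. Foxa2, an endoderm forkhead factor, had 1 to 11 counts in each of the 10 libraries and did not pass the filter.

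Of the 8 members that passed, 1 was higher at an unadjusted p under 0.05 at 2 h, where 1.37% of all genes tested were higher at that p. This held for 3 of 8 at 4 h (3.09% of genes), 3 of 8 at 6 h (7.93%) and 3 of 8 at 8 h (5.13%). For the average over times it was 4 of 8 (Gata2, Gata3, Gata6 and Eomes) against 4.82%. The members were chosen with earlier results of these data known. The paper, which tested intronic reads with DESeq2, lists Gata3 and Gata6 among upregulated genes. The numbers of members higher and the median below are therefore not independent results. Without the second control, 1 of 8 (Gata3) was higher at that p for the average and 1 of 8 at 4 h, and without the first 4 h library of IAA it was also 1 of 8 at 4 h. No member was lower at that p at any time. By the adjusted call with edgeR none of the 8 was called at 2, 4, 6 or 8 h, where 0%, 0%, 0.0677% and 0.00521% of genes were called in either direction. DESeq2 called 1 member, Gata3, at 4, 6 and 8 h each. The median log2 fold change of the 8 members was 0.68 on average over the times, against 0.02 for all genes tested, and the 4 times share the same 2 control libraries.

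**Figure D2:**
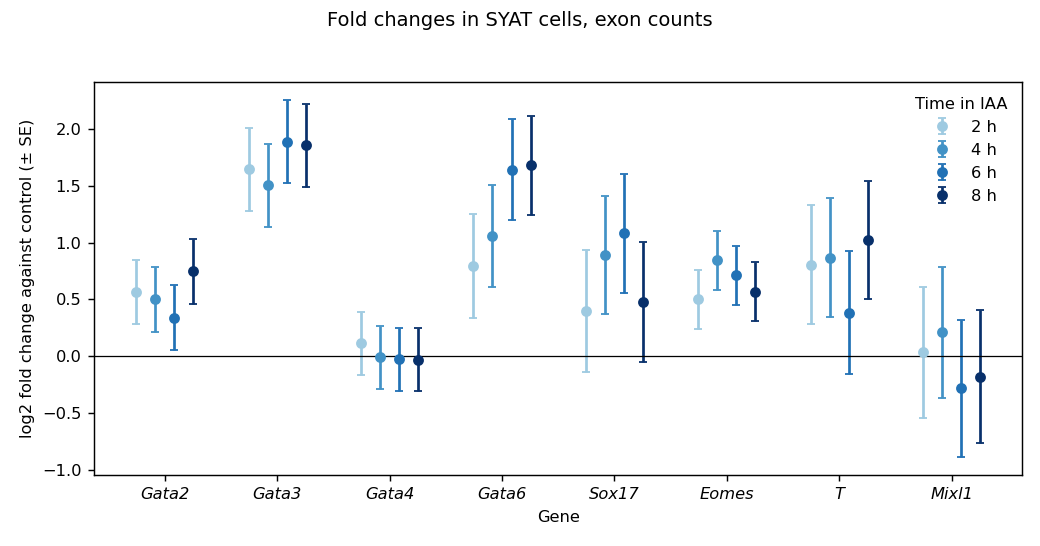
Log2 fold change of exon counts against the SYAT controls (y axis) for the 8 members that passed the filter, by time in IAA (shades of blue). Points are edgeR estimates and bars are ± SE. Gata3 lies between 1.50 and 1.89 at all times, Gata6 goes from 0.79 at 2 h to 1.68 at 8 h, and Gata4 and Mixl1 lie near 0.

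The intron columns gave similar values for Gata3 and Gata6, but they were not a separate measurement. Genes with a single exon have no intron, yet 35.4% to 48.2% of those with at least 20 exon counts carried intron counts in SYAT time course and EG1 libraries, against 0.0347% to 0.0908% in CGR8, LG1, wtSRCAP and cdSRCAP. Gata3 had 32 and 42 intron counts in SYAT controls, and with IAA 61 and 146 (2 h), 69 and 133 (4 h), 95 and 104 (6 h) and 112 and 167 (8 h). These were slightly above the exon counts of the same libraries, and all 8 IAA libraries were again above both controls. Averaged over times, the log2 fold change of Gata3 intron counts was 1.63 ± 0.31, with an edgeR adjusted p of 0.058. After the exon count was subtracted from the intron count, it was 0.87 with an unadjusted p of 0.23 by edgeR. Gata6 had 13 intron counts in each control and 38 and 40 after 8 h, with an average log2 fold change of 1.12 ± 0.32 and an edgeR adjusted p of 0.15. Sox17, Eomes and Mixl1 were at 0 intron counts in all 10 libraries. Eomes, the member with the most exon counts, had 7 and 0 intron counts in LG1 controls and 15 in each LG1 library with IAA. The LG1 intron columns were counted in another way. The 0 values of Eomes in the SYAT time course therefore do not tell whether intron RNA was absent. Of the 5 members that passed the filter on intron counts, 1, 2, 2 and 3 were higher at an unadjusted p under 0.05 at 2, 4, 6 and 8 h. The shares over all genes were 1.84%, 3.63%, 6.53% and 5.67% at these times. For the average it was 3 of 5 (Gata2, Gata3 and Gata6) against 5.51%.

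Annotated genes that overlap the members or start near them had few counts. Gm33460, antisense to the 3′ end of Eomes, had 4 to 17 exon counts in the SYAT time course. The other such genes, namely Gm38708 near Gata2, 3 transcripts within Gata3, 1010001N08Rik across the Gata6 start and Gm37587 across that of Sox17, had 0 to 4. Over the 10 SYAT libraries, the genes whose levels followed Gata3 most closely were Esrp2, Thbs3 and Grhl3, with Pearson r of 0.975, 0.957 and 0.955 among 14238 protein-coding genes. For Eomes they were Ankrd34a, Pik3r1 and Pcdh1, with r of 0.979, 0.971 and 0.969. For Gata2 they were Ociad2, Kansl1 and Irx3 with r of 0.865, 0.840 and 0.838, and for Gata4 Stra6, Rnf112 and Sgo2a with r of 0.876, 0.867 and 0.804. These are descriptions of shared profiles over 10 libraries that also share treatment and depth.

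Other genes of these lineages had mostly positive values over the SYAT time course, and none was called by edgeR in any list. The share of all genes with a positive value was not counted. Of the 24 genes of the primitive streak and early mesoderm list, 19 were tested, and all 19 had a positive value averaged over the times. Against 4.82% of all genes tested, a share that holds for each SYAT list here, 3 of the 19 were higher at an unadjusted p under 0.05. These were Kdr, a receptor of mesoderm and endothelium, at 0.97 ± 0.32 on the log2 scale, Tdgf1, a Nodal co-receptor, at 0.33 ± 0.11, and Nodal, the ligand, at 0.31 ± 0.11. The list's median was 0.43, against 0.02 for all genes. Of 11 definitive endoderm genes tested, 8 were positive and 2 were higher at that p, Prdm1 at 0.73 ± 0.16 and Hhex at 0.64 ± 0.18, with a median of 0.23. Of 6 other GATA family members and cofactors, Zfpm1 (0.42 ± 0.16), which binds GATA factors, and Trps1 (0.72 ± 0.28), an atypical GATA protein, were higher at that p. In the list of primitive and extraembryonic endoderm 3 of 19 were, with Lrp2, a lipoprotein receptor of visceral endoderm, at 0.43 ± 0.13, and among trophoblast markers 3 of 12 were, with Bmp4 at 1.01 ± 0.29.
Markers of other cell types had positive medians as well. Neural markers had a median of 0.26 with 1 of 6 higher at that p (Pax6), fibroblast markers a median of 0.33 with 2 of 5 (Twist1 and Thy1), and ES cell markers a median of 0.20 with 2 of 12 (Tdgf1 and Nanog). Of the genes named from these lists, Trps1, Tdgf1, Bmp4, Pax6 and Nanog were also higher at an unadjusted p under 0.05 after IAA in CGR8 cells without the degron. Their log2 fold changes there were 0.69 ± 0.20, 0.54 ± 0.13, 0.43 ± 0.13, 0.54 ± 0.16 and 0.63 ± 0.13 in this order, each with an edgeR adjusted p of 0.54. In CGR8 9.16% of all genes had such a p in either direction. Lower there at that p were Snai1 (streak), Col4a1 and Col4a2 (primitive endoderm), Ascl2 (trophoblast), Fgfr2 (primitive endoderm and trophoblast) and Nes (neural). The CGR8 medians were -0.32 for other GATA genes, 0.06 for streak, -0.13 for definitive and -0.15 for primitive endoderm. They were -0.19 for trophoblast, -0.35 for neural, 0.02 for fibroblast and 0.04 for ES cell markers. In SYAT, Pax6 had 0.77 ± 0.27 and Nanog 0.61 ± 0.27. The fibroblast list summed to 25.9 to 32.1 CPM in SYAT controls and 29.6 to 41.1 CPM after IAA, with Postn at 0 in all 10 libraries and Lum at 0 from 4 h on. The 14 trophoblast markers, all with counts in every group of the SYAT time course, summed to 142 to 181 CPM in controls and 179 to 212 CPM after IAA. In these bulk samples more cells of a type and more RNA per cell cannot be told apart, and the part of these markers in the members' values was not tested.

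The parental CGR8 cells, which lack the degron, were the control for IAA itself. None of the 9 members had an unadjusted p under 0.05 by edgeR or DESeq2 after 4 h of IAA, where 9.16% of 20250 genes had one in either direction by edgeR. Gata3 had 36 and 89 raw exon counts in controls and 90 and 97 with IAA, so that 1 control lay below the other 3 libraries. Gata6 had 103 and 72 counts in controls and 102 and 136 with IAA, which overlapped after scaling. Eomes had 131 and 230 counts in controls and 328 and 257 with IAA. In CGR8 the log2 fold change was 0.36 ± 0.44 for Gata3, 0.13 ± 0.39 for Gata6 and 0.47 ± 0.30 for Eomes. Of the other members, Gata2 had 220, 200, 222 and 172 counts in control 1, control 2, IAA 1 and IAA 2, Gata4 had 102 to 168, and Sox17 31 and 85 against 33 and 43. Without the second control, whose Gata3 count was the higher one, the log2 fold change was 0.94 ± 0.48 for Gata3 and 0.74 ± 0.30 for Eomes, with edgeR unadjusted p of 0.050 and 0.015. Foxa2 was also higher at an unadjusted p under 0.05 in that fit and Gata2 was lower, and without the first control Sox17 was lower. Over the 9 members, 4 had a positive value, and the median was -0.06. Foxa2, Mixl1 and T ranged from 2 to 27, 14 to 61 and 23 to 53 counts. Intron counts of Gata3 in CGR8 were 8 and 28 in controls and 20 and 21 with IAA, a log2 fold change of 0.01 ± 0.90. The response in SYAT was not tested against that in CGR8, since the tables are separate, and the SE of 0.44 for Gata3 in CGR8 leaves room for a difference.

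**Figure D3:**
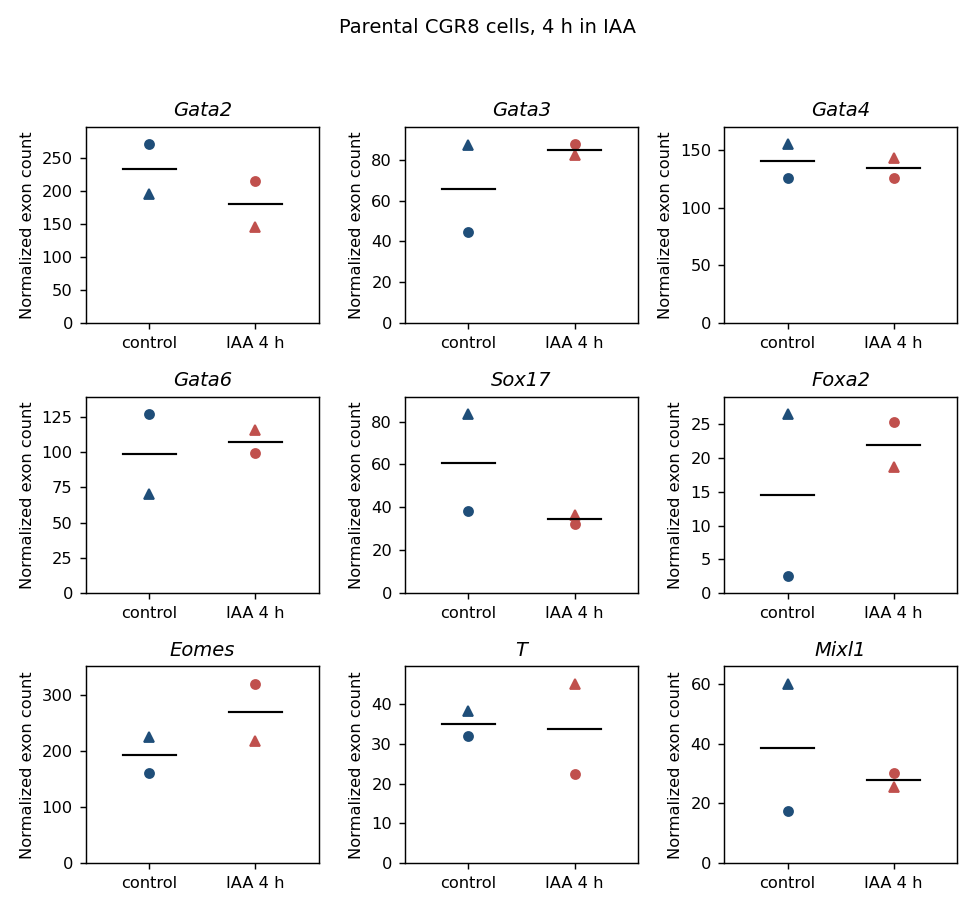
Normalized exon count (y axis) of the 9 members in CGR8 cells without the degron, as control (blue) or after 4 h in IAA (red). Circles are replicate 1, triangles replicate 2 and bars the mean. The IAA and control libraries of Gata3, Gata4, Gata6 and Eomes overlap, and the control replicates of Gata3, Sox17, Foxa2 and Mixl1 lie far apart.

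In cells sorted to early or late G1 phase, 1 h of IAA gave no member an unadjusted p under 0.05 by edgeR or DESeq2. The share over 21020 genes was 1.22% in EG1 and 1.02% in LG1. Gata3 had 209 and 67 raw exon counts in EG1 controls and 136 and 68 after IAA, and 131 and 42 in LG1 controls and 119 and 51 after IAA. Gata2 had 254 and 112 in EG1 controls, 192 and 106 after IAA, 193 and 64 in LG1 controls and 178 and 74 after IAA. In each of the 4 conditions replicate 1 was above replicate 2 for both genes. After scaling, replicate 1 was 2.09 to 3.26 times replicate 2 for Gata3 and 1.90 to 3.15 times for Gata2, a larger gap than that between the means of any pair of conditions. With IAA the log2 fold change of Gata3 was -0.07 ± 0.69 in EG1 and -0.11 ± 0.71 in LG1 with an SE that includes the gap between replicates. Gata4 had 229 and 181 counts in EG1 controls, 212 and 162 after IAA, 188 and 115 in LG1 controls and 165 and 104 after IAA.
Eomes had the steadiest counts, 321 and 320 in EG1 controls, 268 and 246 after IAA, 232 and 199 in LG1 controls and 237 and 216 after IAA, with a log2 fold change of -0.004 ± 0.17 in EG1 and -0.002 ± 0.18 in LG1. Gata6 had 45 and 29 counts in EG1 controls, 24 and 14 after IAA, 24 and 7 in LG1 controls and 35 and 17 after IAA, so that the groups overlapped in LG1 and nearly touched in EG1 after scaling. Between the phases, the IAA response differed at an unadjusted p under 0.05 for none of the 8 members, against 0.699% of all genes. T and Mixl1 had 11 to 25 and 22 to 44 counts over the 8 libraries, and Foxa2, with 1 to 12, did not pass the filter.
Sox17 had 33 and 30 counts in EG1 controls and 11 and 9 in LG1 controls. Its log2 difference, LG1 minus EG1, was -1.27 ± 0.50 with an edgeR unadjusted p of 0.036 and an adjusted p of 1.00. It was the only member lower at that p, where 0.733% of genes were, and the unadjusted p was 0.072 to 0.14 when any 1 of the 4 libraries was left out. Its IAA libraries, with 15 and 32 in EG1 and 11 and 21 in LG1, overlapped. Intron counts of EG1 and LG1 were not compared, since they were made in different ways.

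**Figure D4:**
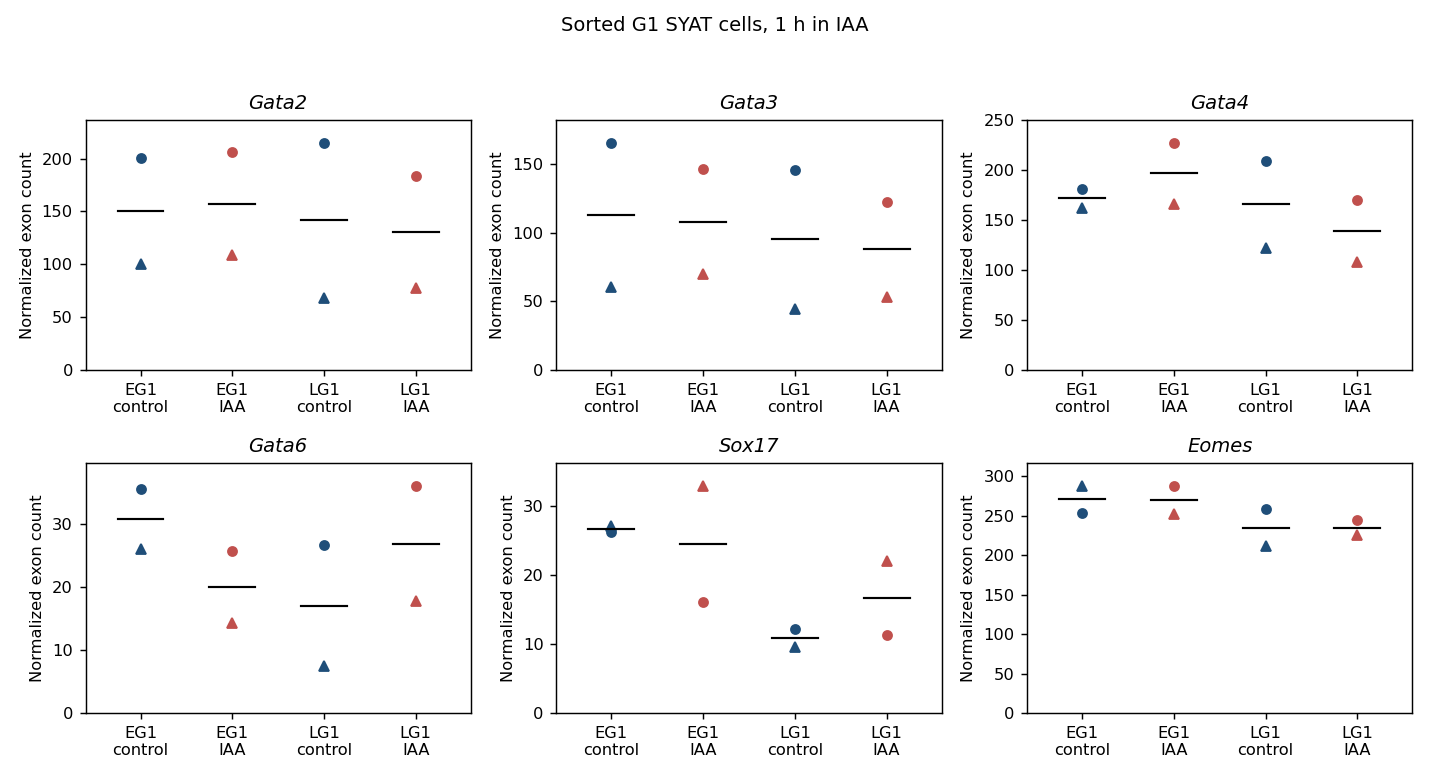
Normalized exon count (y axis) of 6 members in SYAT cells sorted to early (EG1) or late (LG1) G1, as control (blue) or after 1 h in IAA (red). Circles are replicate 1, triangles replicate 2 and bars the mean. For Gata2 and Gata3 replicate 1 is 1.90 to 3.26 times replicate 2 in all 4 conditions, and the conditions overlap.

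In the lines that carry an added SRCAP transgene, the comparison asked whether wild type or catalytically mutated protein altered the response to IAA. Gata3 had 54 and 44 raw exon counts in wtSRCAP controls and 95 and 117 after 4 h of IAA. In cdSRCAP it had 38 and 50 in controls and 54 and 113 with IAA. After scaling, the wtSRCAP groups did not overlap and the cdSRCAP groups did. With 2 libraries a group such an order can arise without a difference, and its share over all genes was not counted, here or for the members below. Its log2 fold change was 1.32 ± 0.50 in wtSRCAP, with an edgeR unadjusted p of 0.027 and an adjusted p of 0.65, and 0.74 ± 0.50 in cdSRCAP, with an unadjusted p of 0.18. The difference of the responses, cdSRCAP minus wtSRCAP, was -0.59 ± 0.71 by edgeR with an unadjusted p of 0.43, an interval that holds no difference as well as one in either direction. Intron counts of Gata3, few in these lines, were 6 and 6 in wtSRCAP controls and 0 and 6 with IAA. In cdSRCAP they were 12 and 14 in controls and 12 and 0 with IAA. The log2 fold changes of these intron counts were -0.87 ± 1.55 in wtSRCAP and -1.03 ± 1.38 in cdSRCAP, opposite in sign to the exon values.
Eomes had 72 and 65 counts in wtSRCAP controls and 112 and 160 with IAA, and 56 and 139 in cdSRCAP controls and 189 and 206 with IAA. The IAA libraries were above the controls in both lines after scaling. Its log2 fold change was 1.17 ± 0.38 in wtSRCAP and 0.99 ± 0.37 in cdSRCAP, with edgeR unadjusted p of 0.013 and 0.026 and adjusted p of 0.64 and 0.81. The responses differed by -0.18 ± 0.53.
T had 4 and 3 counts in wtSRCAP controls and 15 and 20 with IAA, and 4 and 11 in cdSRCAP controls and 6 and 9 with IAA. The wtSRCAP groups did not overlap, while those of cdSRCAP did. The log2 fold change was 2.47 ± 0.86 in wtSRCAP with an edgeR unadjusted p of 0.018 and an adjusted p of 0.64, and -0.04 ± 0.82 in cdSRCAP. The difference of the responses was -2.51 ± 1.19 with an edgeR unadjusted p of 0.063. At 3 and 4 counts in the controls its size is poorly known. Intron counts of T were 0 and 1 in wtSRCAP controls and 0 in both libraries with IAA.

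Gata4 had a value of the opposite sign in cdSRCAP. It had 22 and 69 counts in cdSRCAP controls and 10 and 14 with IAA, against 10 and 14 in wtSRCAP controls and 11 and 9 with IAA. The cdSRCAP controls were above the other 6 libraries after scaling. The log2 fold change was -1.91 ± 0.67 in cdSRCAP with an edgeR unadjusted p of 0.018 and an adjusted p of 0.77, and 0.04 ± 0.72 in wtSRCAP. The difference of the responses was -1.95 ± 0.98 with an edgeR unadjusted p of 0.075. In controls alone, cdSRCAP minus wtSRCAP was 1.76 ± 0.67 with an edgeR unadjusted p of 0.027 and an adjusted p of 1.00, and the same 2 control libraries of cdSRCAP set both values. Gata2 had 50 and 44 counts in wtSRCAP controls, 47 and 40 with IAA, 39 and 88 in cdSRCAP controls and 117 and 118 with IAA, with a log2 fold change of 0.19 ± 0.52 and 0.84 ± 0.50 in the 2 lines. After scaling, the Gata2 groups did not overlap in cdSRCAP and did in wtSRCAP. Mixl1 had 4 to 18 counts over the 8 libraries, and Gata6 with 1 to 14, Sox17 with 0 to 14 and Foxa2 with 0 to 5 did not pass the filter.

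Of the 6 members that passed in these lines, 3 (Gata3, Eomes and T) were higher at an unadjusted p under 0.05 by edgeR in wtSRCAP, where 2.93% of 19111 genes were. This count rested on single libraries. None of the 6 was higher at that p without the second wtSRCAP control or without the first wtSRCAP library with IAA. In the latter fit the log2 fold change was 0.77 ± 0.53 for Gata3, 0.75 ± 0.39 for Eomes and 2.01 ± 1.06 for T. In cdSRCAP 1 (Eomes) was higher against 1.65% and 1 (Gata4) was lower against 3.99%, and each kept that p in 1 of the 4 fits that left out 1 library. In the controls 1 (Gata4) was higher in cdSRCAP against 2.50%, also kept in 1 of 4 such fits. With IAA in both lines, none of the 6 differed at that p, against 5.03% of genes in either direction, and none had a difference of responses at that p, against 0.785%. No member was called by the adjusted p in any comparison of these lines by edgeR or DESeq2 in fits without a replicate term. The wtSRCAP and cdSRCAP lines are 1 clone each, so line and transgene cannot be told apart.
In wtSRCAP the fibroblast list summed to 6.15 to 6.75 CPM in controls and 13.1 to 13.8 CPM with IAA, with Lum and Postn at 0, and its median log2 fold change was 1.45 over 4 genes tested. The streak list had a median of 0.95 with 5 of 16 genes higher at that p, against 2.93% of all genes. Among them were Sp5, a target of Wnt signalling, at 1.37 ± 0.41, and Tbx3, a T-box factor, at 0.99 ± 0.35. Tbx3 was also higher after IAA in CGR8 cells without the degron, at 0.58 ± 0.18, with an edgeR unadjusted p of 0.012 and an adjusted p of 0.54. In cdSRCAP the fibroblast list summed to 9.33 to 9.72 CPM in controls and 10.1 to 11.4 CPM with IAA. The streak list had a median of 0.85 there. Against 1.65% of all genes, 2 of its 16 were higher at that p, Kdr at 1.57 ± 0.43 and Wnt3a, which had few counts. Trophoblast markers summed to 135 and 341 CPM in the 2 wtSRCAP controls and to 158 and 349 CPM in the 2 with IAA, so that the replicates stood further apart than the treatments. The part of these markers in the members' values was not tested.

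**Figure D5:**
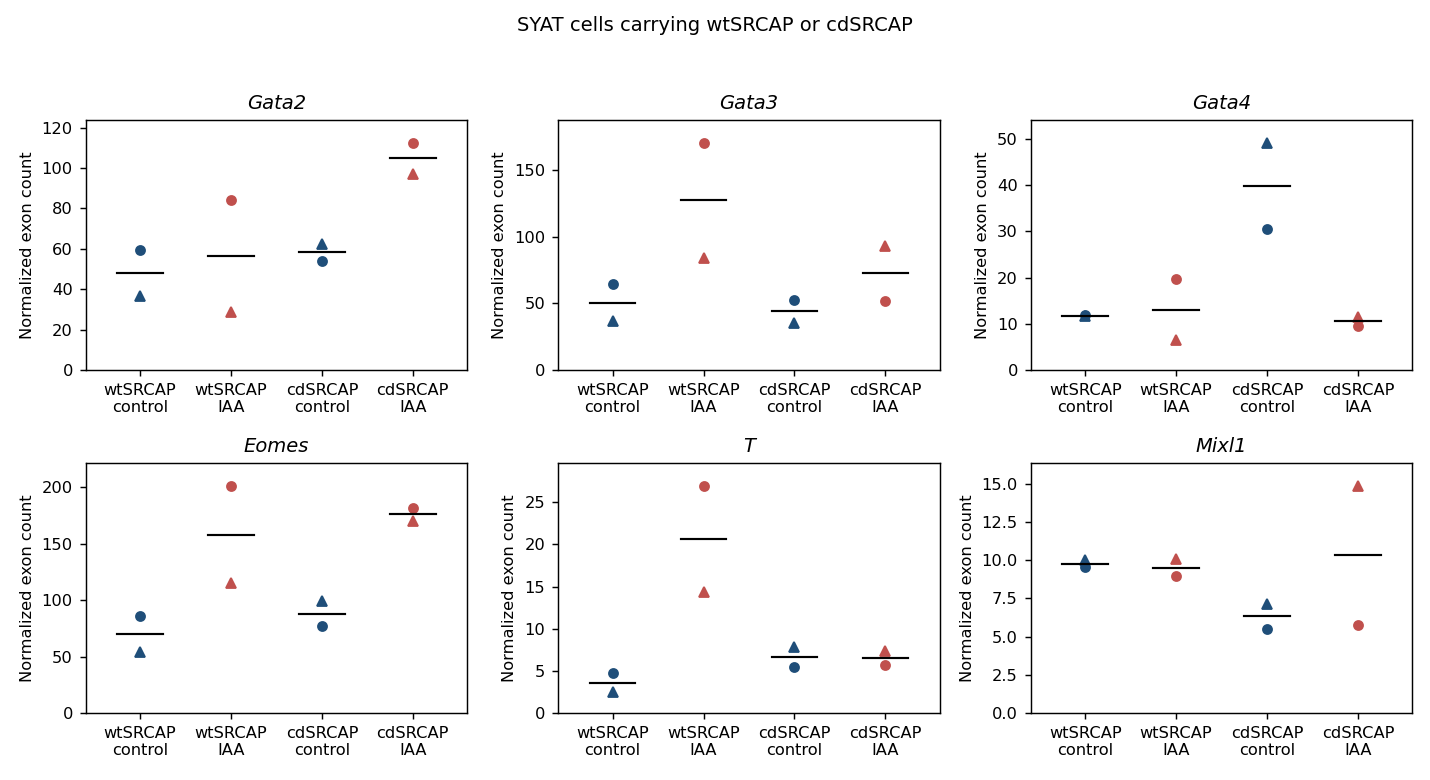
Normalized exon count (y axis) of the 6 members that passed the filter in SYAT cells with wtSRCAP or cdSRCAP, as control (blue) or after 4 h in IAA (red). Circles are replicate 1, triangles replicate 2 and bars the mean. The IAA libraries of Eomes lie above the controls of both lines. In wtSRCAP those of Gata3 and T lie above the controls, and in cdSRCAP those of Gata2 do. The Gata4 controls of cdSRCAP stand above the other libraries.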

How the data were processed

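Nuclear RNA of 15 conditions in biological duplicate was sequenced (NEBNext Ultra II Directional, paired reads). The authors aligned reads with STAR to mm10, used SAMtools 1.10 and Picard, and counted them per GENCODE gene with featureCounts, and the deposited values used here are raw counts of exons and of introns. Tables of the authors' own normalized values, fold changes and p-values were deposited too and not used.

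Each table and column type was fitted by edgeR 4.0.16 (R 4.3.3) with TMM scaling and the quasi-likelihood test over all groups of that table, after filterByExpr with a minimum count of 10 and a minimum total of 15. P-values were adjusted by Benjamini-Hochberg over all genes tested, and a call needed an adjusted p under 0.05 and a log2 change over 0.5. The SE is the log2 fold change divided by the square root of F. Normalized counts are counts divided by the scaled library size. RPKM and overlaps used GENCODE vM21 of GRCm38, and 55141 of the 55401 gene identifiers matched it. Promoter windows came from RefSeq (GRCm38.p6), which held 5 of the 9 members. Windows on chromosome 18 were left out, and those of T and Foxa2 and the second one of Gata2 are not printed.

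Members and lists were chosen with earlier results of these data known. Members were given by raw exon counts in every table, and by intron counts for some of them. Fold changes are given for members with an unadjusted p under 0.05, for Gata3 and Gata6 at all SYAT times, and those of other members were added after their values were seen. From each list at most 4 genes with the smallest p were named. For members with a mean of at least 50 SYAT exon counts the 3 protein-coding genes with the highest r were named. The edgeR fit was tested on simulated data, with changes placed only in genes with a mean of at least 50 counts. Gata6, Sox17, Foxa2, T and Mixl1 had fewer, so this test does not cover them. Alternatives were RLE size factors, no filter, DESeq2 1.42.0, a replicate block, only the 2 groups compared, leaving out each replicate, and intron minus exon counts. With few counts the precision is set by the counts and by 2 replicates a group.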

Additional observations from a re-analysis of the deposited data

How the results depend on the processing

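The number of members called in the SYAT exon columns depended on the processing. For the average over times 1 was called, 2 (Gata3 and Eomes) with a replicate block, and 0 to 1 when 1 library was left out. The single times had 0 called in the report. Without a filter on low counts 1 was called at each of 2, 4, 6 and 8 h, and with DESeq2 1 was called at 4, 6 and 8 h each. With a replicate block 2 were called at 6 h and 1 at 8 h, and leaving out 1 library at 6 h gave 0 to 2. In the intron columns, where 0 were called at every time and for the average, DESeq2 called 1 at 4, 6 and 8 h and for the average, and no filter and a replicate block each called 1 for the average. Leaving out 1 library gave 0 to 2 in the intron columns at 6 h. In wtSRCAP a replicate block called 1 (Eomes) where 0 were called otherwise. Intron minus exon counts turned the Gata3 value at 2 h to -0.033 on the log2 scale, since few counts were left. Of 346 alternative values for the log2 fold changes named, 281 kept direction and side of an unadjusted p of 0.05, 64 kept direction only and 1 reversed.

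The labels do not say that a replicate number marks a shared batch or day, and there are 2 numbers, so the design does not settle the pairing. Between groups, the differences of replicate 1 and replicate 2 across genes had correlations of 0.372 to 0.586 in all 6 exon pairs of sorted groups and 0.259 to 0.376 in all 6 of the wtSRCAP and cdSRCAP lines. They were from -0.036 to 0.589 over 10 SYAT pairs and 0.074 in CGR8. Under the replicate block Gata3 had an adjusted p of 0.010 for the average over SYAT times, and Eomes in wtSRCAP had 1.16 ± 0.32 with an adjusted p of 0.043. In sorted cells the Gata3 response to IAA was -0.02 ± 0.19 in EG1 and -0.07 ± 0.20 in LG1 with the block. The block also gave an unadjusted p of 0.029 for Gata6 in LG1 minus EG1 controls, 0.027 for the difference of its responses between the phases, and 0.016 for Gata2 between cdSRCAP and wtSRCAP with IAA.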
